A study of Rattus norvegicus with 7 samples.

Results

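DNA damage sensing and repair genes were followed in ROE2 cells exposed to 2 mM sodium fluoride (NaF). The 51 genes were chosen by name and sorted into 8 repair pathways, namely 8 genes of double-strand break sensing and checkpoint signaling, 10 of homologous recombination, 5 of the Fanconi anemia pathway, 4 of non-homologous end joining, 4 of mismatch repair, 9 of base excision and single-strand break repair, 9 of nucleotide excision repair and 2 of direct damage reversal. A probe set was counted as a member when the only gene symbol in its annotation was one of the 51 names. This rule found 66 of the 31099 probe sets on the array, which represented 49 of the 51 genes and of 14218 named genes in all, and no such probe set was found for Atm or Fancg. The tested genes were the 35 with a probe set whose mean log2 signal over the 7 arrays was at least 7, out of 7349 genes named by the 10731 probe sets that passed this filter.

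ROE2 is an immortalized line with epithelial-like morphology from the tongue of fetal transgenic Wistar rats, and cells of all groups carry a temperature-sensitive SV40 large T-antigen, a viral protein known to bind p53 and the retinoblastoma protein. The groups were a vehicle control without a labeled time, taken here as the start of the time course, vehicle (sterilized water) for 3, 6 and 12 h, and 2 mM NaF for 3, 6 and 12 h. Every group was measured on 1 array that held the RNA of 3 independent experiments in a pool. Where single NaF arrays were compared, the 4 vehicle arrays therefore supplied the only spread. Such a p-value weighs a difference against those among pooled vehicle arrays of different times. In the comparison of 3 NaF with 4 vehicle arrays, the differences among NaF times also entered the spread, so that different times stood as replicates. The results describe 1 cell line.

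Values are log2 signals, and the array medians lay between 5.32 and 5.35. Vehicle arrays correlated with each other at 0.9961 to 0.9987 over all probe sets. Of 12 epithelial markers, 10 passed the filter with a median vehicle signal of 12.07, whereas Krt18 and Krt19 stood at 2.98 and 3.06. No fibroblast, leukocyte or endothelial marker passed the filter (0 of 6, 0 of 5 and 0 of 3 with a probe set), and of 4 muscle markers Myh1 alone passed, with Ckm at 3.91 and Des at 5.56. The 3' minus 5' log2 signal of the actin control probe sets, a measure of RNA integrity, ranged from 1.53 to 2.83 on the vehicle arrays and from 1.77 to 2.39 on the NaF arrays.

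Cells read DNA damage through kinases and repair it by separate routes. ATM and ATR are the apical kinases, which signal to the checkpoint kinases CHEK2 and CHEK1, and double-strand breaks are then either joined directly or repaired from a sister chromatid by homologous recombination, whereas damaged, mispaired or bulky bases are cut out by base excision, mismatch and nucleotide excision repair. Many recombination and mismatch repair genes are known to be transcribed mainly in dividing cells, together with the replication genes that E2F factors control, while excision repair genes tend to be expressed throughout the cell cycle.

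Promoter letters are shown for 3 genes whose mRNA was lower under NaF and whose promoters held an E2F-like motif (Chek1, Msh6 and Fancd2). They are also shown for 2 genes whose mRNA was higher (Alkbh1 and Xrcc4). The 3 lower genes were picked by direction and motif together, as examples. Fancl, which was higher and held an E2F-like motif, is not shown. Each run covers 100 bases before to 20 bases after the RefSeq start on build GRCr8, is written 5′ to 3′ on the gene's strand, and has motif letters in capitals.
Chek1, chr8:44629824-44629943, minus strand: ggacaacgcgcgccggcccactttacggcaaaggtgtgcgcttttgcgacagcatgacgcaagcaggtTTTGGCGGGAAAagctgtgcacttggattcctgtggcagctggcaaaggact
Msh6, chr6:12333486-12333605, minus strand: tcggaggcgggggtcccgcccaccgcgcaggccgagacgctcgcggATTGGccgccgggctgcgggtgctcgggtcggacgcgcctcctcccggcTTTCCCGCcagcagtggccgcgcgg
Fancd2, chr4:148234608-148234727, plus strand: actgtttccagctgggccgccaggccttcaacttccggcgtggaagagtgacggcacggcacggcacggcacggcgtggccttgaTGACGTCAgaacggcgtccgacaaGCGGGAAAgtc
Alkbh1, chr6:112819689-112819808, minus strand: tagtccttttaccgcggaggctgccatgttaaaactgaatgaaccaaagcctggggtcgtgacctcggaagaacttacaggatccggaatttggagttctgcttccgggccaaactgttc
Xrcc4, chr2:22932794-22932913, minus strand: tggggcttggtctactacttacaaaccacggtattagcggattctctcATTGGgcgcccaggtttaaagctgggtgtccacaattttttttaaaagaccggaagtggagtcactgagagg

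In Chek1 the capitals mark 2 overlapping E2F-like matches on opposite strands, in Msh6 a CCAAT box read on the other strand and an E2F-like match, in Fancd2 a cyclic AMP response element and an E2F-like match, and in Xrcc4 a CCAAT box read on the other strand. The Alkbh1 window held none of the motifs searched. The search covered the whole RefSeq windows (250 bases before to 50 after the start) on both strands, for TTTGGCGC, TTTCCCGC, TTTGGCGG and TTTCGCGC (E2F-like), TTTGAA (the cell cycle homology region), CCAAT, TGACGTCA (the cyclic AMP response element) and TGATGCAA (an ATF4-C/EBP composite), and 43 of the 51 genes had a window.

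An E2F-like motif was found in 8 of these 43 windows (18.6%), against 4.96% of the windows of 6245 tested genes and 2.31% of all 27457 windows. The 8 genes were Chek1, Msh6 and Fancd2, which were lower under NaF, Fancl, which was higher, Nthl1, which passed no test, and Atm, Bard1 and Fancc, which were not tested. The other motifs stood in 6 (TTTGAA, 14%), 17 (CCAAT, 39.5%), 2 (TGACGTCA, 4.65%) and 0 (TGATGCAA) of the 43 windows, against 11.3%, 38.6%, 3.67% and 0.592% of the windows of tested genes. Other genes called lower under NaF, such as Brca2, Rad50, Exo1, Apex1 and Xrcc1, had a window without an E2F-like motif. A link between this motif and the direction of the mRNA change was not tested. A match is a run of letters and was not tested for binding.

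Across the 35 tested genes, transcript changes were few at 3 h and went in both directions at 12 h. With limma and an adjusted p below 0.05 against the 4 vehicle arrays, 1 gene was higher and 2 were lower at 3 h (2.86% and 5.71% of the 35, against 2.73% and 6.22% of all tested probe sets). At 6 h, 5 were higher and 8 lower (14.3% and 22.9%, against 16.7% and 22.2%). At 12 h, 7 were higher and 16 lower (20% and 45.7%, against 28.9% and 31.6%). The shares at 3 and 6 h lay near those of all probe sets, and at 12 h the share of lower genes was above and that of higher genes below the background, a difference that was not tested. In all, 27 genes passed at 1 or more times, 9 passed in the same direction at 6 and 12 h, and 8 passed at none.

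**Figure D1:**
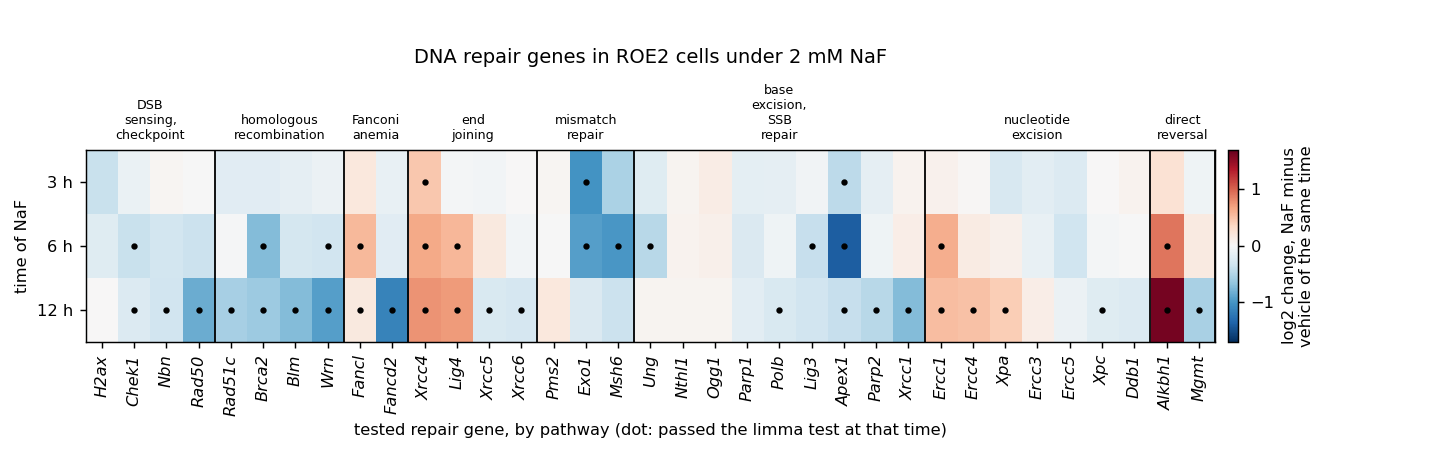
Log2 difference between each NaF array and its time-matched vehicle array (color, red for higher and blue for lower) for the 35 tested repair genes (columns, by pathway) at 3, 6 and 12 h (rows). A black dot marks a gene that passed the limma test at that time, and the dots number 3, 13 and 23 at 3, 6 and 12 h.

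The difference between a NaF array and the vehicle array of its own time, here called the same-time difference, has no replicate and therefore no test. Its median over the 35 genes was -0.08, -0.07 and -0.23 log2 units at 3, 6 and 12 h, against -0.03, 0.00 and -0.003 over all tested probe sets. It was below 0 for 22, 23 and 22 of the 35 genes, and was largest in size at 3 h for 4 genes, at 6 h for 11 and at 12 h for 20. Only 1 gene at 6 h (Apex1, lower) and 1 at 12 h (Alkbh1, higher) differed by 2.5-fold or more, and none did at 3 h, whereas 0.429%, 2.01% and 3.85% of all tested probe sets passed this fold at 3, 6 and 12 h.

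For individual genes, signals are given in the order vehicle control, vehicle 3, 6 and 12 h, then NaF 3, 6 and 12 h. The fitted difference is the log2 signal of a NaF array minus the mean of the 4 vehicle arrays, with its standard error (SE) from limma, and the adjusted p is that of limma over all 10731 probe sets.

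Alkbh1, a dioxygenase of the AlkB family that removes methyl groups from nucleic acids, had the largest rise of the tested repair genes at 12 h. Its signal was 9.15, 9.01, 8.90 and 8.95 on the vehicle arrays and 9.25, 9.81 and 10.58 on the NaF arrays. All 3 NaF values lay above every vehicle value. The fitted difference was 0.25 at 3 h (adjusted p = 0.21), 0.81 at 6 h (SE 0.103, adjusted p = 0.0028) and 1.58 at 12 h (SE 0.103, adjusted p = 0.00022), and the same-time ratio at 12 h was 3.1-fold. A second Alkbh1 probe set, too dim to be tested, had same-time differences of 0.13, 1.09 and 1.35 at 3, 6 and 12 h. Mgmt, the methyltransferase that takes alkyl groups off the O6 position of guanine and the other direct reversal gene, read 7.17, 7.45, 7.39 and 7.34 with vehicle and 7.37, 7.54 and 6.80 with NaF. Mgmt was within or above the vehicle range at 3 and 6 h and below it at 12 h, where it fell by 0.54 (SE 0.111, adjusted p = 0.0079).

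In non-homologous end joining, the genes of the ligase IV complex rose and those of the Ku dimer fell at 12 h. Over all tested probe sets, the same-time difference at 12 h ran from -0.73 at the 10th to 0.71 at the 90th percentile. Prkdc and Poll, the tested end joining genes outside the list, stood at -0.30 and -0.25. Xrcc4, the scaffold that holds ligase IV, read 7.28, 7.38, 7.44 and 7.43 with vehicle and 7.84, 8.09 and 8.20 with NaF. Every NaF value was above every vehicle value, and Xrcc4 was the only tested repair gene called higher at 3 h, with fitted differences of 0.45 (SE 0.080, adjusted p = 0.027) at 3 h, 0.70 (adjusted p = 0.002) at 6 h and 0.82 (SE 0.080, adjusted p = 0.00057) at 12 h. The 3 h call was lost without the vehicle 3 h, 6 h or 12 h array (adjusted p = 0.064, 0.09 and 0.074). Lig4, the ligase itself, read 7.83, 7.97, 7.97 and 7.97 with vehicle and 7.94, 8.54 and 8.69 with NaF. It stayed inside the vehicle range at 3 h and rose by 0.60 at 6 h (SE 0.078, adjusted p = 0.0029) and 0.75 at 12 h (adjusted p = 0.00068).

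A dimmer Lig4 probe set, not tested, had same-time differences of -0.36, 0.35 and 0.41 at 3, 6 and 12 h, so that the probe sets differed at 3 h and both were higher at 6 and 12 h. Xrcc5 and Xrcc6 encode Ku80 and Ku70, which cap broken ends. Xrcc6 read 7.72, 7.78, 7.83 and 7.86 with vehicle and 7.78, 7.78 and 7.58 with NaF, and its fall at 12 h was small (-0.22, SE 0.074, adjusted p = 0.046). Xrcc5 likewise fell at 12 h by 0.25 (adjusted p = 0.022) after readings of 8.89 to 9.02 with vehicle and 8.97 and 9.12 with NaF at 3 and 6 h. The Xrcc5 call was lost without the vehicle 6 h or 12 h array (adjusted p = 0.061 and 0.052) and the Xrcc6 call without the vehicle 3 h, 6 h or 12 h array (adjusted p = 0.066, 0.11 and 0.082), whereas Xrcc4 and Lig4 kept theirs at 6 and 12 h without any 1 of the 4.

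**Figure D2:**
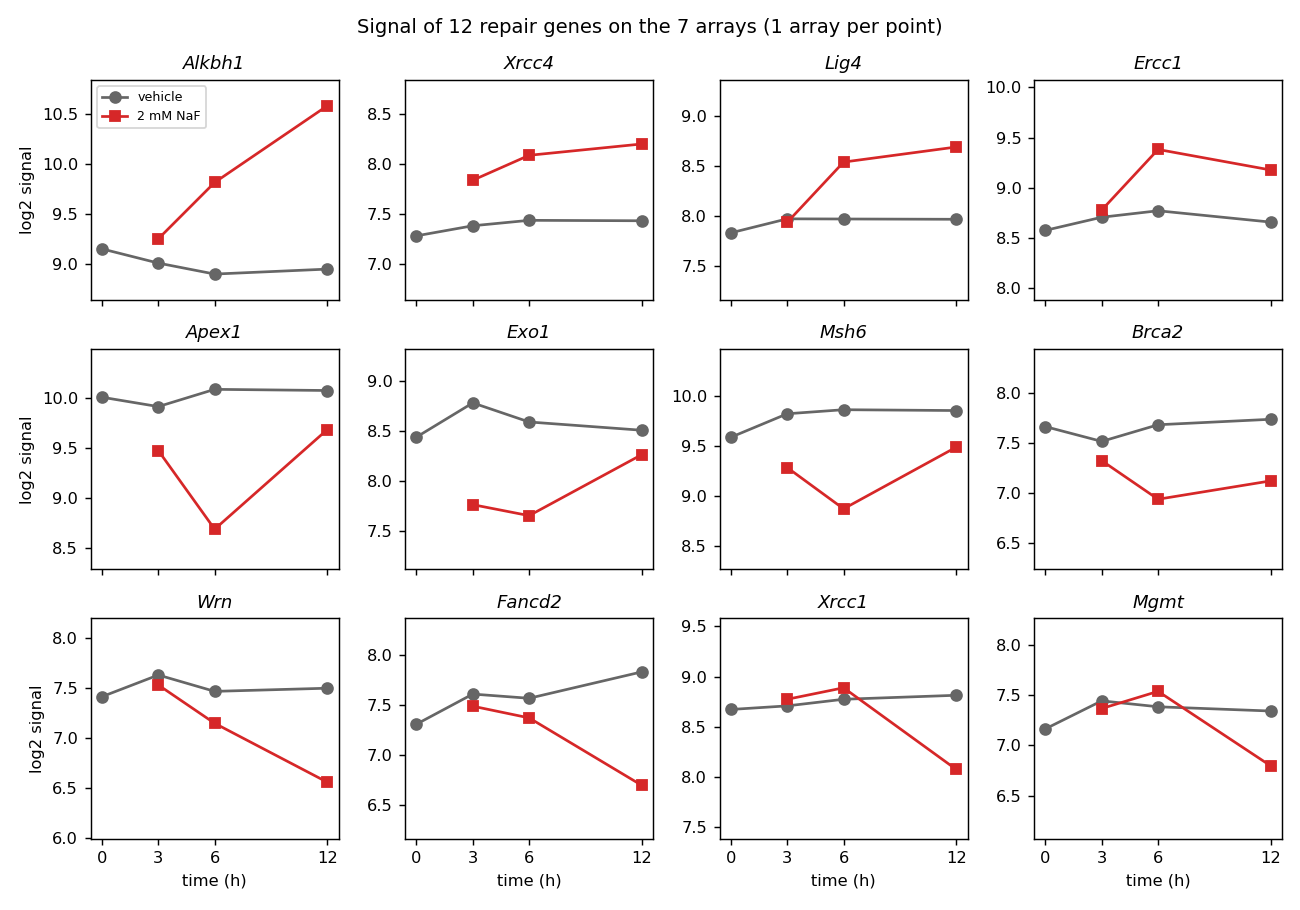
Log2 signal of 12 repair genes on the 7 arrays against time in hours, with gray circles for vehicle and red squares for 2 mM NaF (1 pooled array per point, no error bars; every panel spans 2.2 log2 units). Alkbh1 reached 10.58 at 12 h of NaF against 8.95 with vehicle, and Apex1 dipped to 8.69 at 6 h and stood at 9.69 at 12 h.

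Nucleotide excision repair removes bulky lesions, and the listed genes that rose are those that verify the lesion and cut 5′ of it. Ercc1 and Ercc4, which encode the subunits of the 5′ nuclease (ERCC1-XPF), and Xpa, the damage verifier that recruits this nuclease, were higher at 12 h. Ercc1 read 8.57, 8.70, 8.77 and 8.66 with vehicle and 8.78, 9.38 and 9.18 with NaF. All NaF values exceeded the vehicle values, by a fitted 0.71 at 6 h (SE 0.086, adjusted p = 0.0024) and 0.50 at 12 h (adjusted p = 0.004). Ercc4 read 8.17, 8.42, 8.52 and 8.49 with vehicle and 8.45, 8.66 and 8.98 with NaF, and its fitted difference passed the test at 12 h only (0.58, SE 0.136, adjusted p = 0.013).

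Xpa read 6.87, 7.19, 7.21 and 7.33 with vehicle, a wide spread, and 6.92, 7.29 and 7.75 with NaF. Its 12 h value was above every vehicle value (0.59, SE 0.165, adjusted p = 0.023), but the call was lost without the vehicle 3 h or the vehicle 6 h array (adjusted p = 0.062 and 0.055). Xpc, which recognizes distorting lesions, fell slightly at 12 h (-0.17, SE 0.059, adjusted p = 0.047), from 8.10 to 8.16 on the vehicle arrays to 7.96, and this call was lost without the vehicle 3 h, 6 h or 12 h array (adjusted p = 0.053, 0.1 and 0.085). Ercc3, a helicase of TFIIH, and Ercc5, the 3′ nuclease, passed no test against the vehicle arrays, though Ercc3 was higher at 12 h than at 3 h of NaF by 0.27 (adjusted p = 0.031). Ddb1, the adaptor of the UV damage ubiquitin ligase, passed none with its brightest probe set (-0.18 at 12 h, adjusted p = 0.087), but did with its other tested one (-0.21, adjusted p = 0.027).

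Other nucleotide excision repair genes, from a list kept apart from the 51, showed calls in both directions as well. Of 9 tested, 6 were higher at 12 h (Ercc8, Gtf2h1, Cdk7, Mnat1, Ccnh and Xab2, by same-time differences of 0.29 to 0.75) and 2 were lower (Cetn2 by -0.53 and Gtf2h5 by -0.70). Cdk7, Mnat1 and Ccnh encode the kinase module of TFIIH, and Ercc8 and Xab2 act in transcription-coupled repair. These genes are named after their values were seen. Of all tested probe sets, 28.9% and 31.6% were called higher and lower at 12 h.

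**Figure D3:**
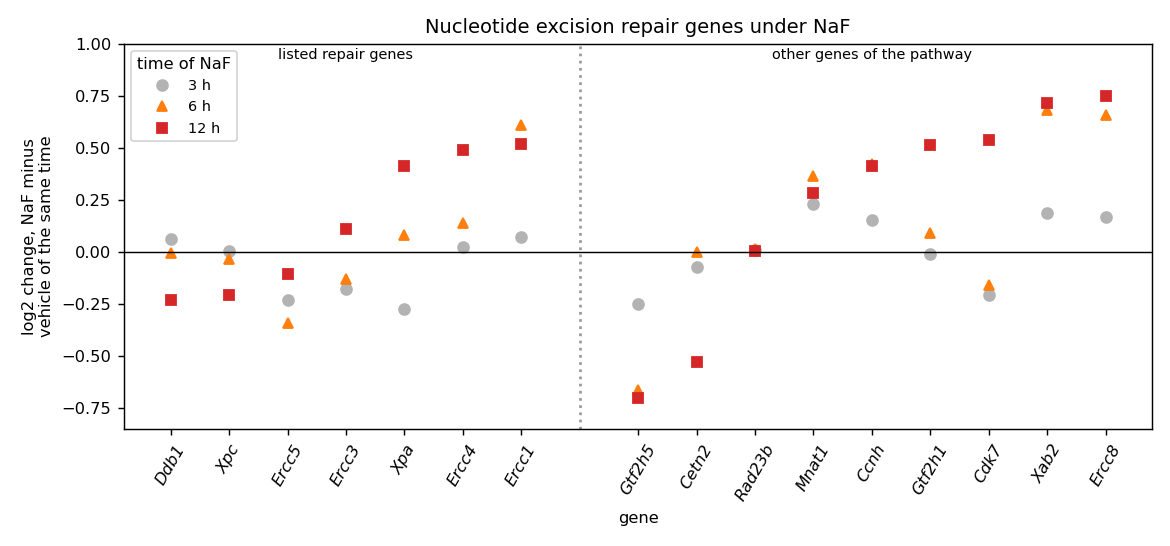
Same-time log2 difference (NaF minus vehicle) at 3 h (gray circles), 6 h (orange triangles) and 12 h (red squares) for the 7 tested nucleotide excision repair genes among the 51 (left) and 9 other tested genes of the pathway (right), each side sorted by the 12 h value. Ercc1, Ercc4 and Xpa lie between 0.42 and 0.52 at 12 h, and Gtf2h5 is lowest at -0.70.

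Of 10 homologous recombination genes, 4 were tested, and all 4 (Brca2, Rad51c, Blm and Wrn) were lower at 12 h, where 31.6% of all tested probe sets were, with a median same-time difference of -0.68. Brca2, a breast cancer susceptibility gene of this pathway, read 7.66, 7.52, 7.68 and 7.74 with vehicle and 7.32, 6.94 and 7.12 with NaF. All 3 NaF values were below all vehicle values, and the fitted difference was -0.71 at 6 h (SE 0.094, adjusted p = 0.0031) and -0.53 at 12 h (adjusted p = 0.0045). Wrn, the helicase and exonuclease mutated in Werner syndrome, read 7.41, 7.63, 7.46 and 7.50 with vehicle and 7.53, 7.15 and 6.56 with NaF. It lay inside the vehicle range at 3 h, and its fitted difference was -0.35 at 6 h (adjusted p = 0.028) and -0.94 at 12 h (SE 0.092, adjusted p = 0.00057). The 6 h call of Wrn was lost without the vehicle 6 h or 12 h array (adjusted p = 0.071 for both).

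Blm, the related helicase of Bloom syndrome, read 7.56, 7.80, 7.76 and 7.85 with vehicle and 7.64, 7.46 and 7.11 with NaF, with a call at 12 h (-0.63, SE 0.116, adjusted p = 0.0051). Rad51c, a recombination mediator, was below the vehicle arrays (7.72 to 7.94) only slightly at 3 h (7.69), inside them at 6 h (7.83) and lower at 12 h (7.37, fitted difference -0.47, adjusted p = 0.0067). The other 6 genes of the class did not reach the signal filter, and among them Rad52, Xrcc2, Bard1 and Palb2 had same-time differences of 0.42, 0.19, 0.18 and 0.02 at 12 h. Of 7 tested recombination genes outside the list, 3 were lower and 1 higher at 12 h, where 31.6% and 28.9% of all tested probe sets were. The gene called higher was Mus81, with a same-time difference of 0.45. The largest fall was that of Rpa3, a subunit of the single-strand binding protein RPA, with -1.36.

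Of 5 genes of the Fanconi anemia pathway, which unhooks crosslinks between strands, only 2 were tested. At 12 h 1 was higher and 1 lower, where 28.9% and 31.6% of all tested probe sets were. Fancd2, the protein that is monoubiquitinated when the pathway is activated, read 7.31, 7.61, 7.57 and 7.83 with vehicle and 7.49, 7.37 and 6.70 with NaF. Its vehicle SD of 0.214 was the widest of the tested repair genes, its values at 3 and 6 h overlapped the vehicle arrays, and at 12 h it was lower (-0.88, SE 0.181, adjusted p = 0.0077). Fancl, the ubiquitin ligase that modifies Fancd2, read 7.48, 7.57, 7.52 and 7.56 with vehicle and 7.75, 8.08 and 7.72 with NaF. All NaF values were above the vehicle values, with a peak at 6 h (0.55, SE 0.064, adjusted p = 0.0022) and a smaller rise at 12 h (0.19, adjusted p = 0.047) that was lost without the vehicle 6 h or the vehicle 12 h array (adjusted p = 0.11 and 0.074).

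In double-strand break sensing and checkpoint signaling, none of the 4 tested genes was higher than vehicle at any time and 3 were lower at 12 h (31.6% of all tested probe sets were). Of 11 tested genes of this class outside the list, 9, 8 and 5 had a same-time difference below 0 at 3, 6 and 12 h. Of all tested probe sets, 57.0%, 49.4% and 50.2% did. The median over the 11 genes was -0.16, -0.34 and 0.04, against -0.03, 0.00 and -0.003 over all tested probe sets. Rad50, the ATPase of the MRE11-RAD50-NBN complex that binds broken ends, read 7.80, 7.77, 7.93 and 8.04 with vehicle and 7.77, 7.56 and 7.20 with NaF, and fell by 0.68 at 12 h (SE 0.114, adjusted p = 0.0036). Nbn, the subunit that recruits ATM, read 9.34, 9.25, 9.40 and 9.25 with vehicle and 9.28, 9.09 and 8.92 with NaF, with a call at 12 h (-0.39, SE 0.080, adjusted p = 0.008). Both genes had a 3 h value at or near the vehicle values and lower values at 6 and 12 h.

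Chek1, the effector kinase of ATR, read 7.79, 7.83, 7.83 and 7.73 with vehicle and 7.72, 7.45 and 7.49 with NaF, and was lower at 6 h (-0.34, SE 0.067, adjusted p = 0.012) and 12 h (-0.30, adjusted p = 0.011). H2ax, the histone variant phosphorylated around breaks, read 8.65, 8.72, 8.79 and 8.93 with vehicle and 8.33, 8.59 and 8.93 with NaF. It passed no test against the vehicle arrays (adjusted p = 0.068 at 3 h) but was higher at 12 h than at 3 h of NaF by 0.60 (adjusted p = 0.016). The contrast between NaF times does not subtract the change in vehicle, where H2ax read 8.72 at 3 h and 8.93 at 12 h. The mRNA level says nothing of the phosphorylated form.

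**Figure D4:**
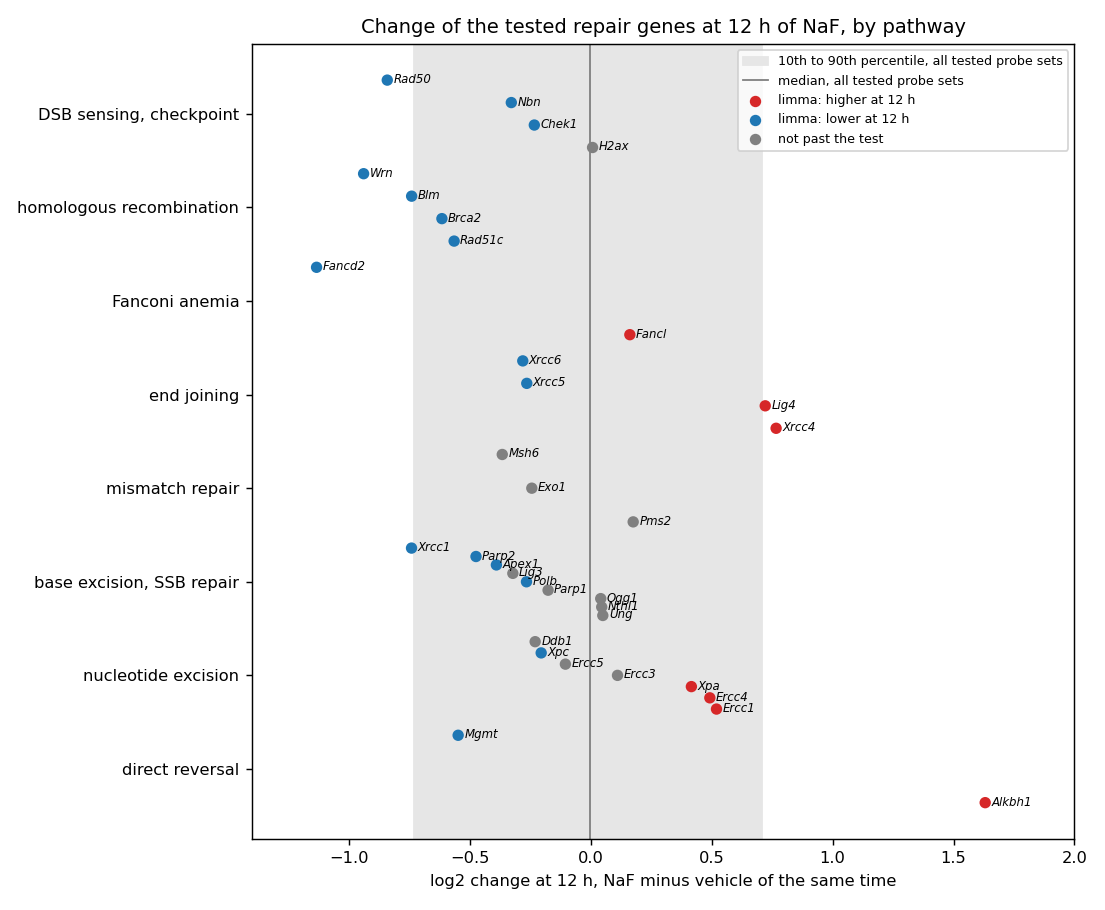
Same-time log2 difference at 12 h (horizontal axis, NaF minus vehicle) of the 35 tested repair genes by pathway (rows), in red for higher, blue for lower and gray for genes that did not pass limma against the 4 vehicle arrays. The gray band spans the 10th to 90th percentile of all tested probe sets (-0.73 to 0.71), and Rad50, Wrn, Blm, Fancd2, Xrcc1, Xrcc4, Lig4 and Alkbh1 lie outside it.

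Apex1, Msh6, Ung and Exo1, of base excision and mismatch repair, had their lowest signal on the NaF 6 h array and were nearer to vehicle at 12 h. This shape was not particular to these pathways. Rad1, Tp53bp1, Rbbp8 and Rev1, outside the list, and the mitotic genes Plk1 and Ccna2 were also lowest at 6 h of NaF. Other genes, such as Rpa3 and the S-phase gene Gins1, were lowest at 12 h. Apex1, the endonuclease that cuts at abasic sites, read 10.01, 9.92, 10.09 and 10.08 with vehicle and 9.48, 8.69 and 9.69 with NaF. All 3 NaF values were below the vehicle values. The fitted difference was -0.55 at 3 h (SE 0.084, adjusted p = 0.019), -1.33 at 6 h (adjusted p = 0.00047) and -0.34 at 12 h (adjusted p = 0.016), and the signal rose by 0.99 between 6 and 12 h of NaF (SE 0.106, adjusted p = 0.0026). The 3 h call was lost without the vehicle control, 6 h or 12 h array (adjusted p = 0.058, 0.079 and 0.066). Exo1, the exonuclease that resects the mismatched strand, read 8.44, 8.78, 8.59 and 8.51 with vehicle and 7.77, 7.66 and 8.27 with NaF. It too was below the vehicle range on each NaF array, by -0.81 at 3 h (SE 0.131, adjusted p = 0.021), -0.92 at 6 h (adjusted p = 0.0039) and -0.32 at 12 h (adjusted p = 0.083), with the 3 h call lost without the vehicle 6 h or 12 h array (adjusted p = 0.092 and 0.071).

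Msh6, a mismatch recognition subunit, read 9.59, 9.83, 9.87 and 9.86 with vehicle and 9.29, 8.88 and 9.49 with NaF, and passed the test at 6 h only (-0.91, SE 0.119, adjusted p = 0.003). Without the vehicle control array, whose Msh6 value stands apart from the other 3, Msh6 was also called lower at 3 h (-0.56, adjusted p = 0.023) and 12 h (-0.36, adjusted p = 0.0069). Pms2, the mismatch repair endonuclease subunit, passed no test (0.20 at 12 h, adjusted p = 0.15). Ung, which excises uracil, read 9.62, 9.77, 9.53 and 9.54 with vehicle and 9.57, 9.06 and 9.60 with NaF, so that it was lower at 6 h alone (-0.56, SE 0.105, adjusted p = 0.0099). Lig3, the ligase of single-strand break repair, was called lower at 6 h (-0.33, adjusted p = 0.048), a call lost without the vehicle 3 h, 6 h or 12 h array (adjusted p = 0.092, 0.12 and 0.092).

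The change from 6 to 12 h was tested as the NaF 12 h array minus the NaF 6 h array, a contrast added after the values were seen. Of the 35 genes, 5 rose and 6 fell, where 21.4% and 19.9% of all tested probe sets did. The 5 were Apex1 and Alkbh1, and Msh6, Exo1 and Ung with 0.62 (adjusted p = 0.022), 0.61 (adjusted p = 0.031) and 0.53 (adjusted p = 0.023). The single NaF 6 h array enters both the 6 h calls and this contrast, so that the rises of genes called lower at 6 h are not independent of those calls. Wrn, also lower at 6 h, fell further by 0.59 (adjusted p = 0.012), and Chek1, Brca2 and Lig3 passed in neither direction.

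The remaining base excision and single-strand break repair genes were lower at 12 h or did not pass. Xrcc1, the scaffold that assembles single-strand break repair, read 8.67, 8.71, 8.77 and 8.81 with vehicle and 8.77, 8.89 and 8.07 with NaF. It was inside or above the vehicle range at 3 and 6 h, and at 12 h it was lower by a fitted -0.67 (SE 0.075, adjusted p = 0.00087). Parp2, a poly(ADP-ribose) polymerase, read 7.96, 8.24, 8.15 and 8.17 with vehicle and 8.09, 8.07 and 7.70 with NaF, and its call at 12 h (-0.43, adjusted p = 0.018) was lost without the vehicle 6 h or the vehicle 12 h array (adjusted p = 0.054 and 0.052).

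Polb, the gap-filling polymerase, fell at 12 h with both of its tested probe sets (-0.23 and -0.33, adjusted p = 0.029 and 0.02), and the call of the brighter one was lost without the vehicle 6 h or 12 h array (adjusted p = 0.076 and 0.06). Parp1, the main polymerase of this family, lay below the vehicle range on all 3 NaF arrays (9.77, 9.77 and 9.82, against 9.86 to 10.02), but by differences that did not pass the test (adjusted p = 0.12 to 0.23). The glycosylases Ogg1, for oxidized guanine, and Nthl1, for oxidized pyrimidines, passed no test, and the same-time differences of their brightest probe sets did not exceed 0.13 in size. The tested probe sets of Nthl1 stood at 0.05 and -0.01 at 12 h. Of the repair genes outside the list, Lig1, the replicative ligase, had a fitted difference of -0.92 at 12 h (SE 0.116). Alkbh3, a homolog of Alkbh1 in the direct reversal class, had one of 0.80 (SE 0.121). Alkbh2, the other tested direct reversal gene outside the list, went the other way. Its fitted differences were -0.50, -0.92 and -0.55 at 3, 6 and 12 h.

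Over the 3 NaF arrays together against the 4 vehicle arrays, limma called 1 repair gene higher (Xrcc4, 0.66, SE 0.102, adjusted p = 0.019) and 2 lower (Brca2, -0.52, adjusted p = 0.034, and Exo1, -0.68, adjusted p = 0.041), with backgrounds of 4% and 4.48%. These 3 calls were lost whenever any 1 vehicle array was left out. Without overlap between the arrays of the 2 treatments, 7 genes had all NaF values below all vehicle values (background 15.2%) and 4 had all of them above (background 14.2%). The 7 were Chek1, Rad50, Brca2, Msh6, Exo1, Parp1 and Apex1, and the 4 were Fancl, Xrcc4, Ercc1 and Alkbh1.

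Between NaF 3 h and NaF 12 h, 8 repair genes rose and 7 fell (backgrounds of 24.5% and 24.4%). The largest rises were those of Alkbh1 (1.33, SE 0.131, adjusted p = 0.0013), Xpa (0.82, adjusted p = 0.021) and Lig4 (0.75, adjusted p = 0.0026). Wrn fell most, by 0.97 (SE 0.117, adjusted p = 0.0021), followed by Fancd2 with 0.79 (adjusted p = 0.033) and Xrcc1 with 0.70 (adjusted p = 0.0028).

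Of the apical and recombination genes known best from inherited cancers, several were too dim for a test. Atm had no probe set of its own. Atr read 6.95, 7.21, 7.13 and 7.01 with vehicle and 6.95, 6.54 and 6.42 with NaF, so that its 6 and 12 h values were below every vehicle value. Without a filter its fitted difference was -0.54 at 6 h, which was not called, and -0.66 at 12 h, which was called lower. Chek2 read 6.27, 6.46, 6.88 and 6.79 with vehicle and 6.46, 5.78 and 5.97 with NaF, and did not pass without a filter (adjusted p = 0.12 at 6 h and 0.16 at 12 h). Brca1 read 4.87, 4.68, 5.10 and 5.19 with vehicle and 4.46, 4.77 and 4.83 with NaF, values at which the groups overlap and a change cannot be judged.

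The other 11 untested genes had same-time differences at 12 h from -0.86 (Msh3, a mismatch recognition subunit) to 0.42 (Rad52, a recombination mediator). Fanca stood at -0.52, Mre11 at -0.39, Rad54l at -0.37, Ddb2 at -0.36, Fancc at -0.23, Palb2 at 0.02, Bard1 at 0.18, Xrcc2 at 0.19 and Ercc2 at 0.26. Mre11 (fitted difference -0.30 without a filter) and Rad52 (0.44) were not called at 12 h in the fit without a filter. Without a filter, Msh3 (adjusted p = 0.014) and Fanca (adjusted p = 0.022) were called lower at 12 h, at a dim signal.

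Genes of proliferating cells fell in the same arrays. Of 15 tested S-phase genes, 13, 12 and 14 had a same-time difference below 0 at 3, 6 and 12 h. Of all tested probe sets, 57.0%, 49.4% and 50.2% did. The median over the S-phase genes was -0.14, -0.32 and -0.75, and Gins1 (-1.62), Mcm5 (-1.02) and Rrm1 (-0.98) fell most at 12 h. Of 12 mitotic genes, 3, 11 and 12 were lower at 3, 6 and 12 h, with a median of -0.96 at 12 h (Ccnb2 -1.32, Bub1 -1.15 and Top2a -1.11). These lists fell on the same arrays as Fancd2 and the tested recombination and checkpoint genes that were called lower, and their part in those changes was not tested. Fewer cells in S phase and less mRNA per cell cannot be told apart in these pooled cultures.

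Among 9 tested p53 targets of the damage response, 3 were higher and 2 lower at 12 h (33.3% and 22.2%, against 28.9% and 31.6% of all tested probe sets), with a median same-time difference of 0.03, so that the list as a whole was near the background. The 3 were Sesn2 (1.93), Gadd45b (0.99) and Gadd45a (0.94). Cdkn1a (-0.04), the cyclin-dependent kinase inhibitor p21, and Mdm2 (0.19), the ubiquitin ligase of p53, passed no test at 12 h. All cells carry the large T-antigen, which is known to bind p53, and the part of p53 in these values was not tested. At 12 h 8 of the 10 tested epithelial markers were also lower, with a median same-time difference of -0.49, and Myh1, the lone muscle marker above the filter, was called higher at 6 and 12 h (0.97 and 0.64). The part of these markers in the repair gene changes was not tested.

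A list of 92 other repair genes was counted in the same way. Of its 46 tested genes, 0, 8 and 11 were higher and 5, 17 and 13 lower at 3, 6 and 12 h, and 1 (Rpa3) passed 2.5-fold. At 3 h these are 0% and 10.9% of the list, against 2.73% and 6.22% of all tested probe sets. At 6 h they are 17.4% and 37%, against 16.7% and 22.2%, a difference that was not tested. At 12 h they are 23.9% and 28.3% of the list, near the 28.9% and 31.6% of all tested probe sets. Its median same-time difference was -0.09, -0.19 and -0.11. In the 6 tested genes of translesion synthesis, the bypass of damage by special polymerases, 2 were lower at 12 h and none was higher.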

How the data were processed

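Total RNA of ROE2 cells from 3 independent experiments was pooled per condition and measured on 7 Affymetrix rat arrays. The authors made biotin-labeled cRNA, scanned the arrays and analyzed them in GeneSpring GX, and deposited log2 signals. Program version, summarization and normalization: not given in the sources used here. Log2 values entered all tests as deposited, without further scaling, and no column was left out. The number of arrays limits the precision, with a median SD of 0.0768 over the vehicle arrays and a median SE of 0.0826 at 12 h.

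Gene symbols came from an older platform annotation, checked by gene ID against RefSeq (build GRCr8), which gave a single symbol to 20832 of 31099 probe sets, several to 436 and no symbol to 9831. One member symbol, Ercc4, also occurs on a probe set shared with Ercc4l1, which was not used. The 10731 probe sets with a mean log2 signal of at least 7 were tested with limma 3.58.1 under R 4.3.3, by linear models with moderated variances and Benjamini-Hochberg adjustment (threshold 0.05), after the procedure was tested on simulated data. Each NaF array was set against the average of all 4 vehicle arrays (3 residual and 2.78 prior degrees of freedom), on the assumption that the lone NaF array varies like vehicle. The same fit compared NaF 12 h with NaF 3 h and with NaF 6 h, without subtracting the change of vehicle between those times. A second fit compared 3 NaF with 4 vehicle arrays, with the differences among times within both groups in its error (5 residual and 2.72 prior degrees of freedom). Where a gene had several tested probe sets, the brightest on average stood for it.

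The 51 genes, the pathway lists and the comparisons were chosen with earlier results of these data known. Genes were named by a rule: Atm, Atr, Chek1, Chek2, Brca1 and Brca2, members past 2.5-fold, up to 3 per pathway with the largest same-time difference at 12 h, members whose tested probe sets disagree in sign at 12 h, and up to 3 of each other list; other members with a call were added after their values were seen. Alternatives were other signal filters, array medians set equal, quantile normalization, a variance trend, averaged probe sets per gene, leaving out each array, time as a block, another baseline and a 2-fold threshold. RefSeq promoter windows were found for 43 of the 51 genes, and the first listed start was used where a gene had several.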

Additional observations from a re-analysis of the deposited data

Results flagged for a closer look

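The change between NaF 3 h and NaF 12 h was tested for each repair gene with limma, in a fit where both arrays are single. Of the 35 genes, 15 differed between these times, with 8 rises and 7 falls. The backgrounds for this contrast were 24.5% for rises and 24.4% for falls, and neither share of the 35 exceeded its background. A difference between the repair genes and the background was not tested. Alkbh1 (1.33, adjusted p = 0.0013), Xpa (0.82, adjusted p = 0.021), Lig4 (0.75, adjusted p = 0.0026), H2ax (0.60, adjusted p = 0.016), Ercc4 (0.53, adjusted p = 0.047), Ercc1 (0.40, adjusted p = 0.027), Xrcc4 (0.36, adjusted p = 0.029) and Ercc3 (0.27, adjusted p = 0.031) were higher at 12 h on the log2 scale. Wrn (-0.97, adjusted p = 0.0021), Fancd2 (-0.79, adjusted p = 0.033), Xrcc1 (-0.70, adjusted p = 0.0028), Mgmt (-0.57, adjusted p = 0.019), Rad50 (-0.56, adjusted p = 0.022), Blm (-0.53, adjusted p = 0.028) and Nbn (-0.36, adjusted p = 0.031) were lower.

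Among the 4 vehicle arrays, the vehicle control array stood far below the other 3 for Lig4 (7.83, with a gap of 0.968 of the range) and Msh6 (9.59, with a gap of 0.853 of the range) (both past the critical value of Dixon's test, which chance alone exceeds in some groups). Without this array the calls of Lig4 at 6 and 12 h were kept, and Msh6 was called lower at 3, 6 and 12 h.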

How the results depend on the processing

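No called value changed direction under the alternatives that were run. Over the 35 tested genes, 3 times and all settings, 1084 fitted differences kept their side of the threshold, 54 lost it and 17 gained it. Called genes are given as higher and lower. At 3 h (1 and 2), limma called 0 and 0 without a signal filter (2 and 5 at an unadjusted p below 0.05) and 2 higher with quantile normalization; leaving out 1 vehicle array gave 0 to 1 higher and 0 to 3 lower (2 and 5 unadjusted wherever limma gave 0), and none of the 3 calls was kept without each of the 4 arrays. At 6 h (5 and 8), leaving out 1 array gave 5 higher and 6 to 10 lower, and 11 of 13 calls were kept in every case. At 12 h (7 and 16), it gave 5 to 7 and 11 to 19, and 16 of 23 calls were kept. Between NaF 3 h and 12 h (8 and 7), the counts were 2 and 3 without a filter, 12 lower with quantile normalization, and 4 to 8 and 4 to 10 with 1 vehicle array left out (4 higher without vehicle 6 h or 12 h and 5 without vehicle 3 h; 4 lower without vehicle 6 h). Between NaF 6 h and 12 h (5 and 6), they were 3 and 2 without a filter, 8 higher with a minimum signal of 6, and 3 to 8 and 4 to 9 with 1 vehicle array left out (8 higher without the vehicle control, 3 without vehicle 6 h). For 3 NaF against 4 vehicle arrays (1 and 2), leaving out 1 array gave 0 to 4 and 0 to 9; limma called 0 and 0 without any 1 vehicle array or without NaF 6 h (3 to 4 and 4 to 8 at an unadjusted p below 0.05), 4 and 9 without NaF 3 h, and 2 and 4 without NaF 12 h. The same comparison paired by time (time as a block, vehicle control left out) gave 0 and 0 (3 and 5 unadjusted), and without a filter 0 lower (13 unadjusted). Without a filter the median same-time difference at 6 h was -0.20. With 2-fold in place of 2.5-fold, 1 gene passed at 3 h and 2 at 12 h. The causes were not tested. The labels give no replicate numbers, so arrays could be paired by time alone. Depth in the sense of reads does not apply; genes with a mean signal under 7 were left untested, which concerns 14 of the 49 genes with a probe set.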
